A study of Homo sapiens with 4 samples.

Results

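The genes described here are 48 factors and effectors of myeloid differentiation, looked up by symbol among the 10044 gene symbols of a table of H4K20me1 peaks. H4K20me1, the monomethylated form of lysine 20 of histone H4, was mapped by CUT&Tag, in which an antibody brings a transposase to chromatin that carries the mark. The cells were Kasumi-1, an acute myeloid leukemia line with the RUNX1-RUNX1T1 fusion. Of 4 libraries of 100000 cells each, 2 came from cells with a non-targeting guide (genotype WT) and 2 from cells with SETD8 knocked out by CRISPR/Cas9. The SETD8 protein (KMT5A) puts the single methyl group on this lysine. The labels do not say whether the knockout cells were a pool or a clone, how long after editing they were taken, or whether a group's libraries came from separate cultures.

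The deposited table gave 1 value per group for each of 25514 peaks, so no difference between the groups could be tested against a spread between libraries. How the 2 libraries of a group entered its value is not stated, and a value may rest on pooled reads or on 1 library. The value columns carry no group name. They are called first-listed and second-listed, and the authors named their comparison with treated first and control after it. Values are scaled reads per peak, where 1 read counted as 1 in the first-listed and slightly less than 1 in the second-listed group. Whole reads recovered from them summed to about 2791207 and 2682916, with a median of 72 per peak in each. A log2 fold change is the first-listed minus the second-listed log2 value, and its exact Clopper-Pearson 95% interval covers counting error only. The mark does not measure expression and does not test the identity of the cell line. The loss of SETD8 could not be checked from these values, because the columns carry no group name. A loss of the same fold at every peak would also not show in scaled values.

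Granulocytes and monocytes arise from progenitors in which PU.1 (gene SPI1), the C/EBP proteins and the interferon regulatory factors switch on receptors for growth factors, then granule proteins, the oxidase and receptors for microbes. In leukemia with the RUNX1-RUNX1T1 fusion this program is held back. H4K20me1 is known as a mark of transcribed gene bodies and of condensing chromosomes.

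Peaks were present at a minority of these genes, among them 6 of 10 transcription factors and 7 of the 38 others. Rows with any annotation other than distal intergenic are called gene rows, and by the annotated symbol 13 of the 48 genes (27.1%, exact 95% interval 15.3 to 41.8) had a gene row, against 37.7% of 20056 protein-coding genes. The row of TLR4 lay in an intron of another transcript, 136.042 kb past the annotated TLR4 start. Without it 12 genes held 15 peaks of their own. Transcription factors made up 6 of those 12 genes, out of 10 looked up: CEBPD, CEBPE, SPI1, IRF1, NFIL3 and ID2 (60.0%, 26.2 to 87.8). Among the other 38 genes 7 had a row (18.4%, 7.74 to 34.3), which leaves 6 without TLR4: CSF1R, CSF2RB, CD68, ITGB2, CAMP and CYBA. The intervals of these shares overlap, and no test was made between them. The transcription factors were the shorter genes, with a median RefSeq length of 5.883 kb against 16.5945 kb for the others.

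**Figure D1:**
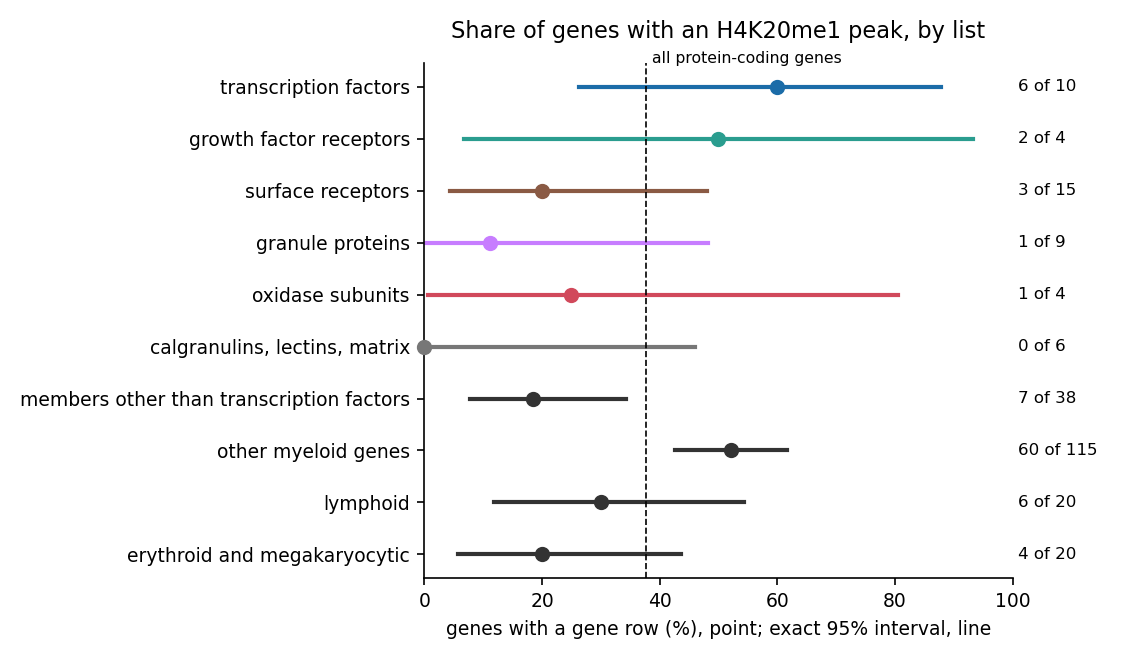
The share of genes with a gene row is plotted in percent for each role group and for 3 comparison lists, with exact 95% intervals as lines and the share of all protein-coding genes as a dashed line. The transcription factors (6 of 10), the growth factor receptors (2 of 4) and the other myeloid genes (60 of 115) lie to the right of that line. The 3 surface receptors include TLR4, whose row belongs to another transcript.

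A further 4 genes, CSF3R, FCGR2A, MMP9 and NCF1, were named only as the nearest gene of distal intergenic peaks. The remaining 31 had no row. Among the transcription factors these were CEBPA, CEBPB, IRF8 and MAF. The growth factor receptor CSF2RA had none, nor did the surface molecules ITGAM, ITGAX, CD14, CD33, CD86, FCGR1A, FCGR3A, TLR2, ANPEP, TYROBP and FPR1. Of the granule proteins, MPO, ELANE, AZU1, PRTN3, CTSG, LYZ and LTF had no row, and of the oxidase subunits NCF4 and CYBB. All 6 genes of the last group, S100A8, S100A9, S100A12, FCN1, VCAN and LGALS3, were without one. The distance from these 31 genes to the nearest peak of the table had a median of 47.032 kb and exceeded 100 kb for 9 of them, up to 2268 kb at CYBB, the large membrane subunit of the phagocyte oxidase. CSF2RA lies in a region shared by the X and Y chromosomes, and NCF1, FCGR1A, FCGR2A and FCGR3A have near-identical copies, so reads there may have been lost in mapping.

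Upstream sequences of 5 genes are printed as examples, and do not represent promoters with and without a peak in general. They are the 250 bases before a RefSeq transcript start (GRCh38.p14), printed along the strand of the gene, with matches to the PU.1 motif GAGGAAGT on either strand in capitals. CAMP, CYBA and IRF1 had a peak over this window, in full at CAMP and CYBA and over 141 bases at IRF1. PRTN3 and TLR4 had none and are shown because their windows hold the motif.
CAMP, chr3:48223245-48223494, plus strand: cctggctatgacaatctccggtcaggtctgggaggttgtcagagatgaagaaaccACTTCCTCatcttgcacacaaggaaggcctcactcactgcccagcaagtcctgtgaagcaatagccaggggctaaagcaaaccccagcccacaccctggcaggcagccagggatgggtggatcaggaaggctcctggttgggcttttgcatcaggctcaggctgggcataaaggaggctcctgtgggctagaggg
CYBA, chr16:88651054-88651303, minus strand: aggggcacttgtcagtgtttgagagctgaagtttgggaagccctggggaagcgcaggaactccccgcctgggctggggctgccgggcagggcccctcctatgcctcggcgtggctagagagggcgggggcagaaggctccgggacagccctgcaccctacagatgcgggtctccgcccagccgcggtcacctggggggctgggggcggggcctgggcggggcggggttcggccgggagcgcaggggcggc
IRF1, chr5:132490774-132491023, minus strand: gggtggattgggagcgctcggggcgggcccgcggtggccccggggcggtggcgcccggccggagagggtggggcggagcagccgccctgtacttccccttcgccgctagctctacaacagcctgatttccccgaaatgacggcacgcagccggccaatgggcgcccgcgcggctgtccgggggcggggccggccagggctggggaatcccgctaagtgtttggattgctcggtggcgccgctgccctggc
PRTN3, chr19:840749-840998, plus strand: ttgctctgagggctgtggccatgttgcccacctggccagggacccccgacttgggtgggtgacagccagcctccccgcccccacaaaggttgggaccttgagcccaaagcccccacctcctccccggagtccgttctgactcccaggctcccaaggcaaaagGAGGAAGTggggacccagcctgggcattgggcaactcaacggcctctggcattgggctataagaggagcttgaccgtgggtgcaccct
TLR4, chr9:117704153-117704402, plus strand: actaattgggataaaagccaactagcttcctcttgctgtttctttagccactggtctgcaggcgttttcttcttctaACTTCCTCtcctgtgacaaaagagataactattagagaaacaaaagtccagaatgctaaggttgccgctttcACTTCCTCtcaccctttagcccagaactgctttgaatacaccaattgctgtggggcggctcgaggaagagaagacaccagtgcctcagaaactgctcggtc

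CYBA and IRF1 had windows of 73.6% and 74.4% G and C with 18 and 29 CpG pairs, whereas the CAMP window had 57.6% and 1 CpG pair. RefSeq upstream sequences were found for 38 of the 48 genes, which have 54 windows, with the same window of CSF2RA listed on X and on Y. None was found for CEBPD, SPI1, ITGB2 and CSF2RB, which had peaks of their own, nor for ITGAX, MPO, ELANE, LYZ, NCF4 and MMP9. The SPI1 peak and 1 CSF2RB peak covered the 5′ end of the RefSeq gene, so the counts of windows with a peak leave out such cases. The PU.1 motif occurred in 5 of the 54 windows, at CAMP, NCF1, PRTN3, TLR4 and TYROBP, and in 2.17% of 34943 windows of all genes. A peak overlapped 6 of the 54 windows, and 5089 of the 34943 windows of all genes. Of the 5 windows with the PU.1 motif, CAMP alone had a peak over it. The RUNX motif TGTGGT was found in 5 of the 54 windows, upstream of CD86, CSF1R, IRF8, LTF and S100A9, none of which had a peak there, and in 10.99% of all windows. The C/EBP palindrome TTGCGCAA was found in 0 of the 54 windows (0.13% of all windows). A pattern 1 base longer, TTGCNNCAA, was found in 4 windows, at FCN1, FPR1, IRF8 and S100A12 (1.63% of all windows). A match to this longer pattern is not counted here as a C/EBP site. Some of the windows of a gene overlap, and a match of letters is not a bound site. Whether windows with a motif differ from the others in peaks was not tested.

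All 15 peaks lay in promoters by the authors' annotation (up to 3 kb from a transcript start), 14 of them within 1 kb, and 12 covered a start. Over all 19703 gene rows of the table, 44.4% were in promoters and 34.3% within 1 kb. The genes were short, with a median RefSeq length of 8.465 kb for the 12 genes against 36.649 kb for all genes with a row. At SPI1, IRF1 and ID2 the peak began 104, 116 and 51 bp before the start and ran 2633, 3524 and 1483 bp into the gene. The peak of CEBPD lay wholly downstream of its start, 1539 to 3065 bp from it, over the downstream part of its RefSeq gene and within the span of SPIDR. Several of the starts belong to shorter transcripts. Counted from the 5′ end of the RefSeq gene, the CSF1R peak lay 45.82 kb inside and the ITGB2 peaks 14.41 kb and 7.928 kb. The inner CSF2RB peak lay 7.84 kb inside and the inner CYBA peak 2.906 kb. The span of the NFIL3 gene reached 60.109 kb past its peak. A RefSeq upstream window of NFIL3 (chr9:91423833-91424082) nevertheless covers the annotated start, which lay 474 bp from the peak.

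**Figure D2:**
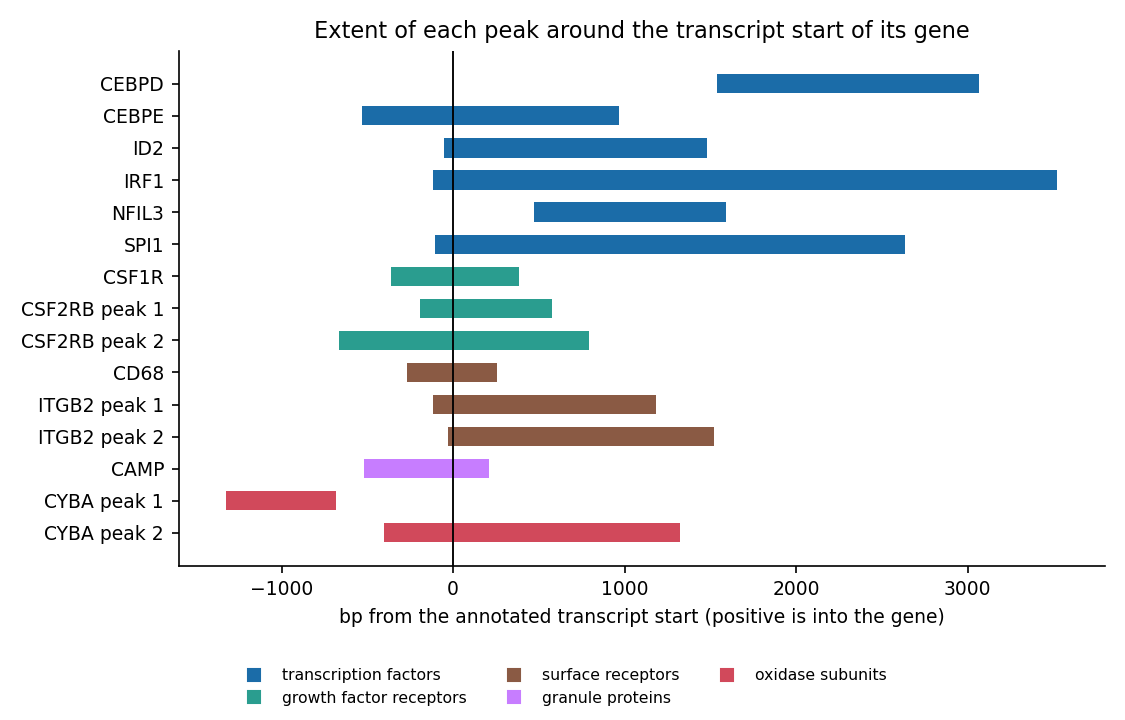
Bars give the extent of each of the 15 peaks in bp from the annotated transcript start, with positive values into the gene and colors for the role of the gene. The bars of IRF1 (to 3524 bp) and SPI1 (to 2633 bp) reach far into the gene, and those of CEBPD and NFIL3 begin after the start.

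The level of the mark was below that of a typical promoter at most of these genes. Levels are given as scaled reads per kb of peak, averaged over the groups. Of the 15 peaks, 10 lay below the median of all promoter peaks (82.1 per kb) and 7 below the lower quartile (57.5). The highest were the peaks of CYBA, the small membrane subunit of the oxidase, at 232 and 188 per kb. SPI1 at 131 was next, and CD68, a lysosomal glycoprotein of macrophages, had 117. The lowest were the inner CSF2RB peak (29.4) and CEBPE (39.2), the C/EBP factor of late granulocyte maturation.

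**Figure D3:**
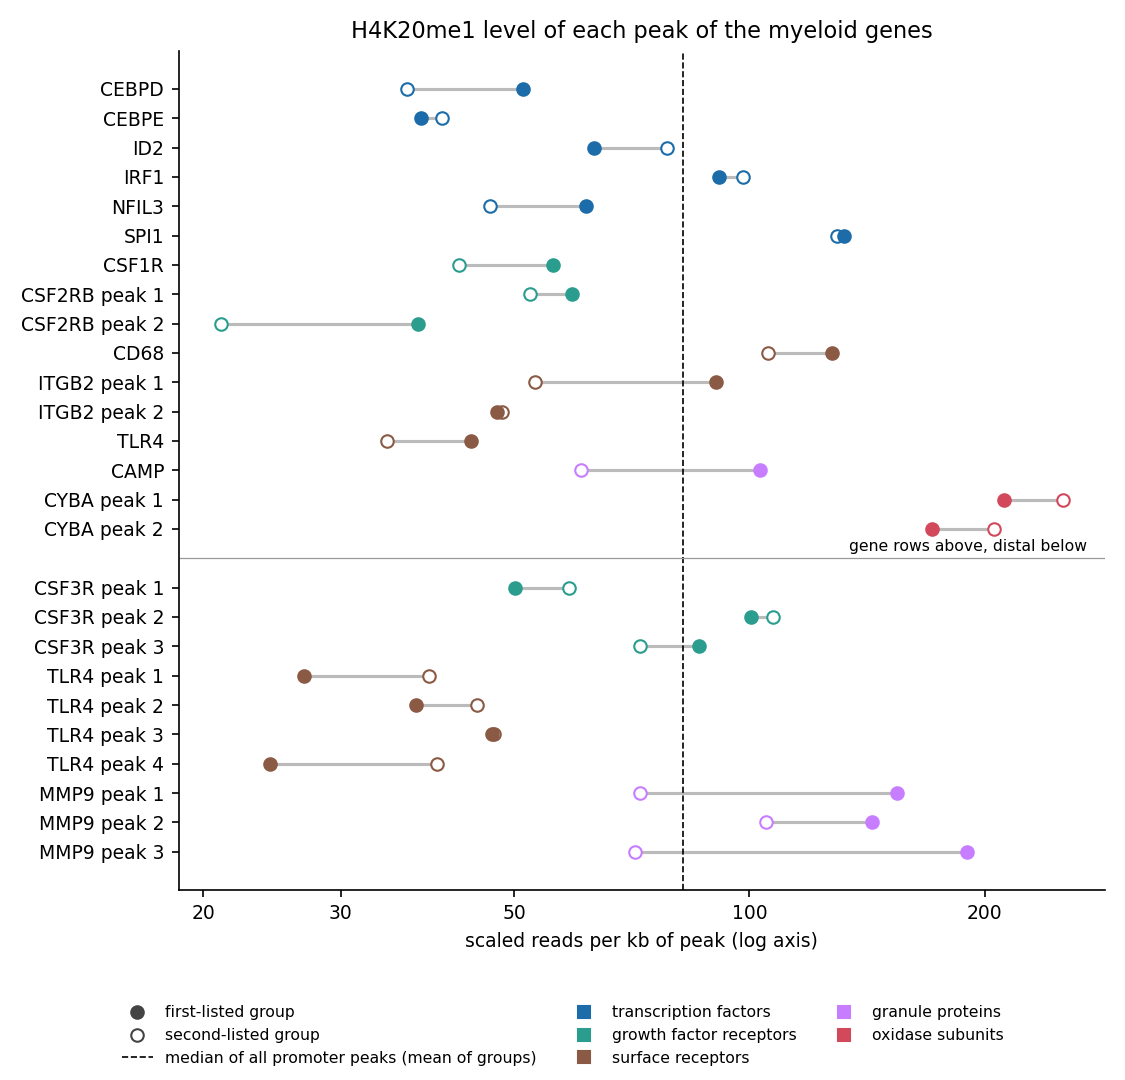
Scaled reads per kb of peak (log axis) are plotted for each peak above the lowest step of the table, filled for the first-listed and open for the second-listed group, with promoter and intron rows above the line and distal intergenic rows below it. The dashed line is the median of all promoter peaks, 82.1 per kb. CYBA stands farthest to the right in both groups, and MMP9 peaks 1 and 3 show wide gaps between the groups.

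No peak of these genes passed an adjusted p of 0.05 in the authors' deposited table, where 0.00% of gene rows did. At an unadjusted p below 0.05, 1 of the 16 rows was called, higher in the first-listed group, against 3.89% of all gene rows in that direction and 1.31% in the other. It was the inner CSF2RB peak. Of the 16 rows 10 had a log2 fold change above 0, against 60.9% of all gene rows. A value of 0.5 or more was reached by 3 rows, against 15.0%, and one of −0.5 or less by 0, against 7.03%. The exact interval lay above 0 for 3 rows, against 20.1%, and below 0 for 1, against 7.55%. These shares are near the background. With both groups scaled to the same number of reads in peaks, 3 intervals lay above 0 (13.3% of all gene rows) and 3 below (12.5%), since ID2 and the inner CYBA peak joined the start peak of CYBA.

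The transcription factors lay on both sides of 0. SPI1 (chr11:47375943-47378680), which encodes PU.1, carried the most reads of the 15 peaks summed over both groups, 362 (first-listed) and 355 (second-listed) scaled reads. The values were close, at a log2 fold change of 0.03 (−0.18 to 0.24), or −0.08 after scaling both groups to the same number of reads in peaks. IRF1 (chr5:132487274-132490914), a factor of the interferon response, had 333 and 357 scaled reads. Its log2 fold change was −0.10 (−0.32 to 0.12).

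ID2 (chr2:8682005-8683539), an inhibitor of E proteins, had 97.0 and 120 scaled reads and a log2 fold change of −0.31 (−0.71 to 0.09). The first-listed value was thus the lower one, in a region where the other 33 peaks within 2.5 Mb had a median of −0.20. CEBPE (chr14:23118651-23120149) had 56.9 and 60.5 scaled reads (−0.09, −0.63 to 0.45). CEBPD (chr8:47736021-47737547), the C/EBP factor of acute phase and monocyte responses, had 78.2 and 55.7 scaled reads. The first-listed value was higher, by 0.49 (−0.02 to 1.00). NFIL3 (chr9:91422271-91423388), a bZIP repressor, had 69.1 and 52.0 scaled reads (0.41, −0.12 to 0.95). It stood above 0 where the 51 neighbouring peaks had a median of −0.26. All 6 intervals included 0, except that of ID2 after scaling to equal reads (−0.82 to −0.03), and the median over these factors was −0.03.

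Both growth factor receptors with a peak were higher in the first-listed group, by values that mostly lay within counting error. CSF2RB encodes the beta chain shared by the receptors for GM-CSF, IL-3 and IL-5. Its inner peak (chr22:36921469-36922926), which also overlapped LOC105373023 of RefSeq, had 54.9 (first-listed) and 30.7 (second-listed) scaled reads. The log2 fold change of 0.84 (0.18 to 1.51) was the largest of the 15, with an unadjusted p of 0.0462 and an adjusted p of 0.966 in the authors' deposited table. The peak at the gene's own start (chr22:36913433-36914206) had 45.9 and 40.5 scaled reads and a value of 0.18 (−0.45 to 0.83). CSF1R (chr5:150066794-150067540), the receptor for M-CSF, had 41.9 and 31.8 scaled reads (0.40, −0.29 to 1.11).

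Effector genes showed differences in both directions. ITGB2, the beta chain of the leukocyte integrins, had 2 peaks with unlike values. The inner one (chr21:44913102-44914402) had 118 and 69.1 scaled reads, a log2 fold change of 0.77 (0.33 to 1.21), with an unadjusted p of 0.0599 in the authors' deposited table. The outer one (chr21:44919331-44920887) had 74.0 and 75.1 scaled reads and a value of −0.02 (−0.50 to 0.46). The difference between these peaks was not tested.

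CAMP, which encodes the antimicrobial peptide LL-37 of neutrophil granules, was the single granule gene with a peak of its own (chr3:48222828-48223555). It had 75.1 and 44.3 scaled reads, higher in the first-listed group by 0.76 (0.21 to 1.32), with an unadjusted p of 0.0703 in the authors' deposited table. CD68 (chr17:7579197-7579723) had 67.2 and 55.7 scaled reads (0.27, −0.26 to 0.80). CYBA was lower in the first-listed group at both of its peaks. The start peak (chr16:88649829-88651554) had 296 and 355 scaled reads (−0.26, −0.49 to −0.04), with an unadjusted p of 0.461 in the authors' deposited table. The inner one (chr16:88647509-88648147) had 135 and 161 (−0.25, −0.59 to 0.09, and −0.70 to −0.03 with equal reads). The 119 other peaks within 2.5 Mb of CYBA had a median of 0.15.

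**Figure D4:**
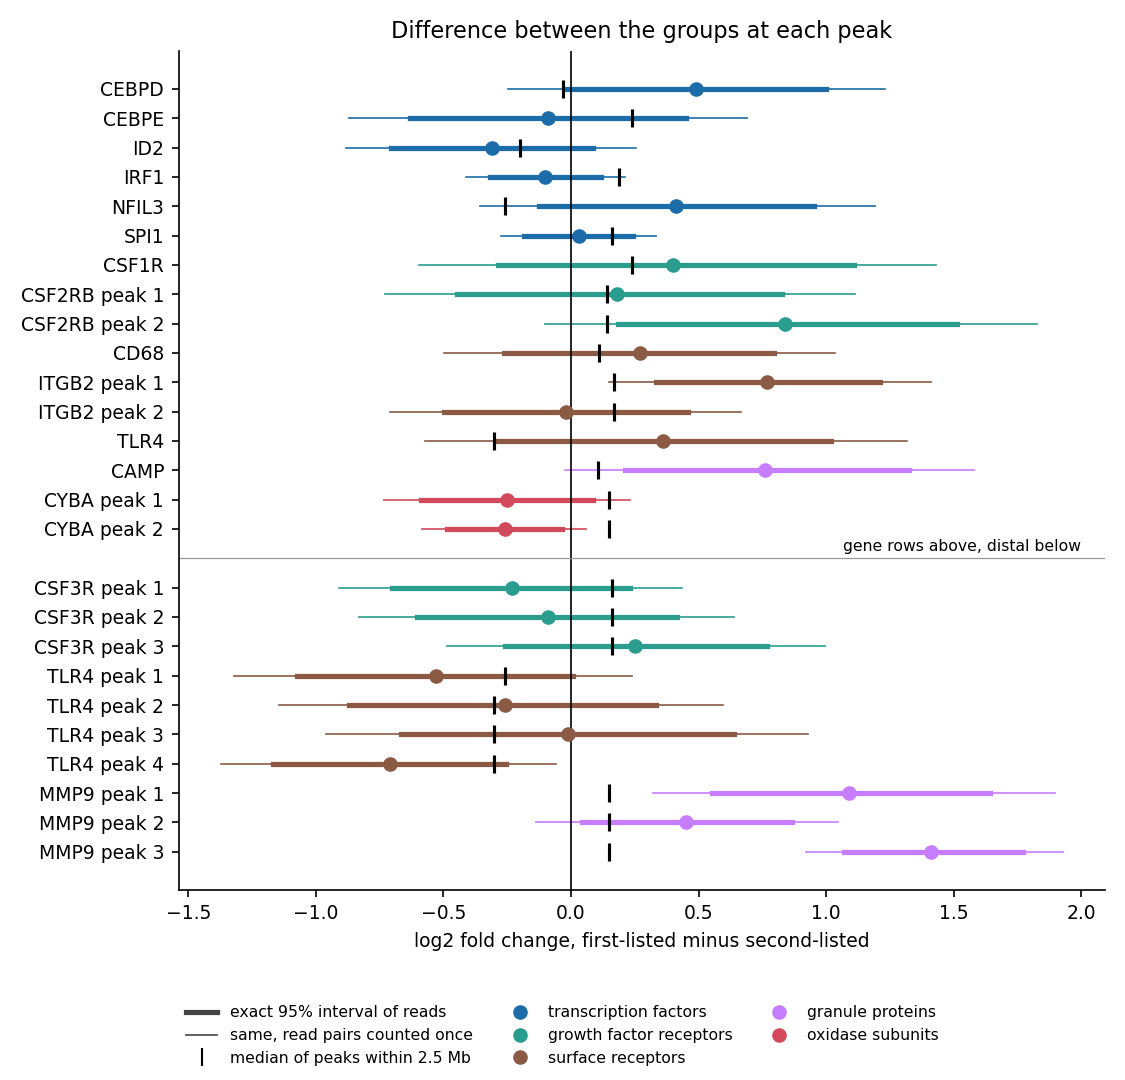
The log2 fold change of each peak above the lowest step is plotted with its exact 95% interval (thick line), the interval if both ends of each fragment had been counted (thin line) and the median of all other peaks within 2.5 Mb (black tick). Of the promoter and intron rows, only ITGB2 peak 1 keeps a thin line above 0 (0.15 to 1.41), and CYBA peak 2 has a thin line up to 0.06. Of the MMP9 peaks, peaks 1 and 3 keep theirs above 0.

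The intervals are too narrow if both ends of a fragment were counted as reads, which the sources used here do not say. With reads taken in pairs, the interval of CAMP ran from −0.02 to 1.58, that of the inner CSF2RB peak from −0.10 to 1.83 and that of the CYBA start peak from −0.58 to 0.06. The inner ITGB2 peak kept an interval above 0 (0.15 to 1.41).

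Over the 12 genes the median of the mean log2 fold changes was 0.32, with 8 above 0 and 4 below, and the median over all 9020 genes with a row was 0.08 with 61.2% above 0. With the TLR4 row the median was 0.36. The values above 0 lay mostly among the peaks with few reads, counted per peak and not per kb. Of the 8 peaks below the median of the table (71.0 scaled reads) 7 were above 0, with a median of 0.41 (all such gene rows: 55.6% above 0). Of the 7 at or above it 2 were above 0, with a median of −0.10 (all such gene rows: 64.7%). These 8 peaks with fewer reads, CD68 with its high level per kb among them, held 32 to 78 reads per group. Scaling to equal reads in peaks shifts every value by −0.11 and left 8 of the 15 peaks above 0, with medians of 0.21 over the 12 genes and −0.03 over all genes.

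**Figure D5:**
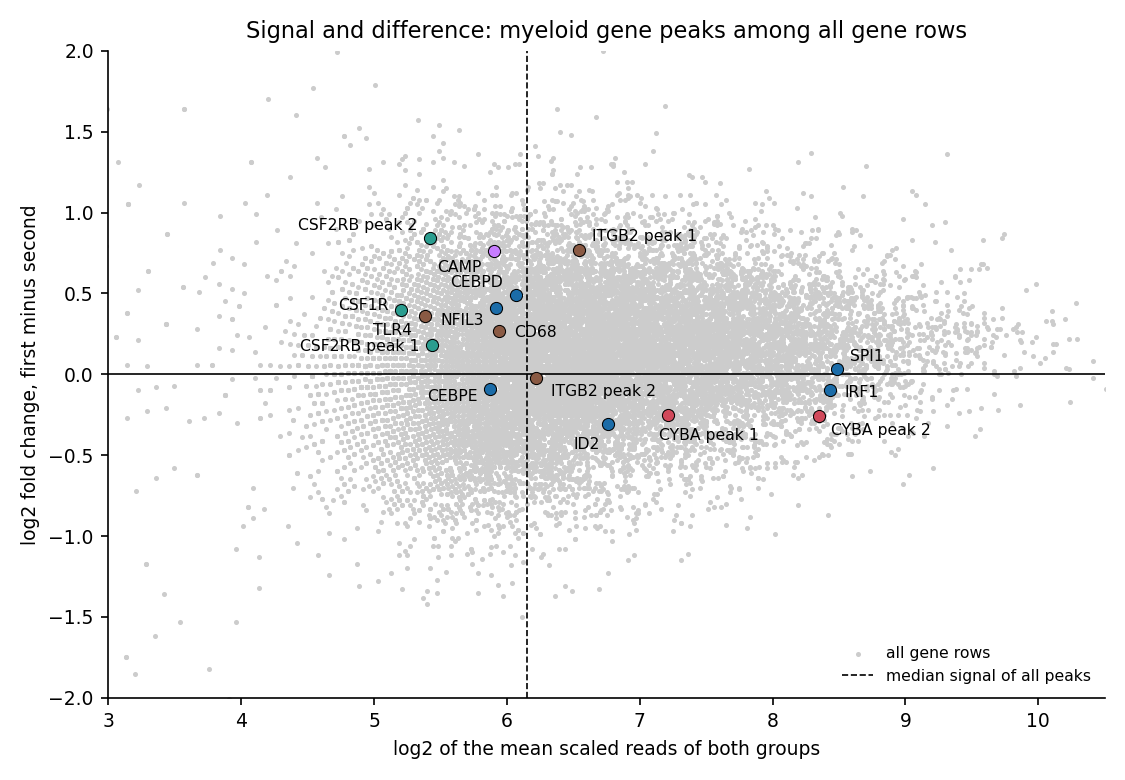
Each gray point is a gene row, with the log2 mean of scaled reads in both groups on the x axis and the log2 fold change on the y axis. Colored points are the rows of the myeloid genes and the dashed line is the median signal. Left of that line the myeloid points are above 0 except CEBPE, and right of it they are below 0 except SPI1 and ITGB2 peak 1. Of 19703 rows, 542 fall outside the axes and are not drawn.

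The 2 widest differences of the whole set lay in front of MMP9, the gelatinase of neutrophil granules, in intergenic chromatin. The peak 3.459 kb upstream of its start (chr20:46004156-46005449) had 246 (first-listed) and 92.4 (second-listed) scaled reads. The log2 fold change was 1.41 (1.07 to 1.77, and 0.95 to 1.66 with equal reads in peaks). In the authors' deposited table its unadjusted p of 0.000262 was the 14th smallest of 25514, and its adjusted p was 0.481.

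A second peak 14.93 kb upstream (chr20:45993397-45993978) had 89.9 and 42.2 scaled reads (1.09, 0.55 to 1.64), with an unadjusted p of 0.0102 and an adjusted p of 0.878 in the authors' deposited table. The one between them (chr20:45998213-45999028) had 117 and 85.6 (0.45, 0.04 to 0.87, and −0.07 to 0.75 with equal reads). Summed over the 3 peaks, 453 and 229 reads gave 1.04 (0.81 to 1.28). All 3 peaks with MMP9 as the nearest gene were thus higher in the first-listed group, though none lay in its body. Whether they belong to MMP9 was not tested. The neighbours on both sides were also above 0, with 0.68 (0.07 to 1.30) at the next peak upstream, nearest to ZNF335, and 0.53 (0.16 to 0.90) at a promoter of SLC12A5 downstream. A second SLC12A5 promoter gave −0.05 (−0.45 to 0.35), and the 64 other peaks within 2.5 Mb had a median of 0.15.

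By the authors' deposited table, 2 of the 13 distal intergenic rows, both near MMP9, had an unadjusted p below 0.05 and a higher first-listed value, against 1.62% of all distal rows. A lower one with such a p stood in 0, against 2.98%. None passed the adjusted threshold (0.00% of all distal rows). The rows of CAMP, FCGR2A and NCF1, an oxidase subunit, stood at the lowest step of the table in both groups and carry no information on a difference. A log2 fold change above 0 was found in 4 of the other 10, against 46.3% of all distal rows above the lowest step (7 of 13 against 48.8% with such rows). One of 1 or more stood in 2, against 1.67%. Values of 0.5 or more stood in 2 rows, against 9.71%, and of −0.5 or less in 2, both near TLR4, against 14.3%. The exact interval lay above 0 in the 3 MMP9 rows (7.04% of all distal rows) and below 0 in 1 TLR4 row (10.0%). With equal reads in peaks it lay above 0 in 2 (3.80%) and below 0 in 2 (15.8%), as the middle MMP9 peak left and the TLR4 peak at 54.155 kb joined. CSF3R, the receptor for G-CSF, was the nearest gene of 3 peaks 70.437 to 122.585 kb upstream, with 207 and 221 reads in sum. Their ratio was −0.04 (−0.32 to 0.24), and the single values lay on both sides of 0, from −0.23 to 0.25.

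TLR4, the receptor for bacterial lipopolysaccharide, was the nearest gene of 4 distal peaks 54.155 to 452.115 kb past its start. In sum they had 201 and 285 reads, a log2 ratio of −0.45 (−0.71 to −0.18), and the single values ran from −0.71 to −0.01. The 25 other peaks within 2.5 Mb of the nearest of them had a median of −0.26, so the surrounding peaks were also lower on median in the first-listed group. The intron row between them (chr9:117844239-117845301) had 46.9 and 36.5 scaled reads (0.36, −0.28 to 1.02). It lay in LOC105376244 of the RefSeq table, which the distal peak at 54.155 kb also overlapped. The distal peaks at 308.867 and 452.115 kb overlapped LOC105376246 and LOC105376247.

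Other genes of the myeloid program, from a list of 115 that shares no gene with the 48, carried a row in 60 cases (52.2%, exact interval 42.7 to 61.6). This count is by symbol and keeps rows that lie in another gene, such as those of CEACAM8 (in LIPE-AS1) and TLR6 (in TLR1). The listed genes were also longer, with a median RefSeq length of 25.564 kb against 15.742 kb for the 48. They held 146 rows, of which 54.8% were in promoters, and the median signal was 113 scaled reads per kb against 70.8 over the 15 peaks above. Of the 60 genes 37 had a mean above 0 and 23 below, with a median of 0.10 over the 60. By the authors' deposited table, 6 of the 146 rows had an unadjusted p below 0.05 and a higher first-listed value and 0 a lower one, against 3.89% and 1.31% of all gene rows, and 0 passed the adjusted threshold.

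The 6 rows belonged to 5 genes. LCP1, an actin bundler of leukocytes, had 263 and 127 scaled reads at a promoter (1.05, 0.74 to 1.36) and a mean of 0.38 over 3 rows. CD44, the hyaluronan receptor, had a row in intron 1 with 955 and 605 (0.66) and a promoter row with 350 and 204 (0.78), and a mean of 0.40 over 9 rows. INPP5D, the inositol phosphatase SHIP1, had 0.89 in 1 row and a mean of 0.10 over 5. CTSB, a lysosomal protease, had 311 and 177 (0.81) in 1 of its 2 rows. CD83, a marker of mature dendritic cells, had 187 and 105 (0.83) in an intron row and a mean of 0.535 over 2. FGR (0.64), CTSB (0.61) and ITGA4 (0.60) had the highest gene means. The lowest were GRN (−0.53), RARA (−0.52), the retinoic acid receptor, and PLCG2 (−0.42).

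Lymphoid genes had a row in 6 of 20 cases (interval 11.9% to 54.3%) and erythroid and megakaryocytic genes in 4 of 20 (5.73% to 43.7%), and both intervals include the share of the 48 genes. The medians of their gene means were 0.32 and 0.19 on the log2 scale.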

How the data were processed

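H4K20me1 CUT&Tag was done on 4 Kasumi-1 libraries, 2 per group. The tools named per the submitters' processing notes are Bowtie2, cutadapt and DESeq, with build hg38. Their versions, the peak caller and the handling of duplicates were not given in the sources used here. The authors deposited log2 scaled reads per peak, 1 value per group, with unadjusted and adjusted p-values. In both columns 100% of values from 1.5 to 5.5 equalled log2 of a whole number plus a constant (0 and −0.057) within 0.0051, so whole reads could be recovered there. The same constants were used for higher values. These are rounded to 2 decimals, so high counts and sums of reads are approximate. Recovery and intervals were checked on simulated independent counts only. These hold no read pairs, duplicates or spread between libraries, so the check says nothing on those.

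Rows were taken by symbol, gene rows apart from distal intergenic rows, and all those of the 48 genes are described. Of the other myeloid genes, those with a row at an unadjusted p under 0.05 and the 3 highest and 3 lowest means are named. Members and lists were chosen with earlier results of these data known. Gene lengths and sequences came from RefSeq (GRCh38.p14). Regional medians used 2.5 Mb on each side. Alternatives covered assignment, signal, scaling and thresholds. Python 3.11.15, pandas 2.3.3 and scipy 1.17.1 were used.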

Additional observations from a re-analysis of the deposited data

How the results depend on the processing

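With distal intergenic rows included, the median over genes was 0.06 in place of 0.36, 17 rows lay above 0, 3 had an unadjusted p below 0.05 by the authors' deposited table and 7 reached 0.5 in size, with 13 rows added. Of those 13, 3 hold the lowest step in both groups. Without them, an alternative chosen after seeing the data, the median was 0.27, 14 rows lay above 0, 3 had such a p and 7 reached 0.5 in size. With peaks at or above the median signal only, 5 genes were left, the median was −0.10, 2 rows lay above 0, 0 had such a p and 1 reached 0.5 in size, with 7 in place of 16 rows. Scaling to equal reads in peaks gave a median of 0.25, which follows from the constant it subtracts, and values taken as the difference from the regional median, chosen after seeing the data, gave 0.16 without TLR4. Rows at an unadjusted p numbered 0 under 0.01 and 3 under 0.1, and 0 rows reached a size of 1. Of 39 values for single genes under alternatives 38 stayed within their intervals, and ITGB2 moved from 0.41 to 0.77 when its stronger peak stood alone. SPI1 fell below 0 under both other scalings (−0.08 with equal reads, −0.03 with none). No paired analysis was possible because the table holds 1 value per group, and for the same reason no library could be left out. The 8 peaks with the fewest reads hold 32 to 78 reads per group and their exact intervals reach about 0.5 or more to each side, so smaller differences were not detectable there at this depth.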

Other observations

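CEBPB, the C/EBP factor of emergency granulopoiesis and macrophages, had no row, but a peak annotated to the promoter of its antisense neighbour CEBPB-AS1 began 0.327 kb past the RefSeq span of the gene (chr20:50193017-50195356). It held 209 reads in the first-listed group against 182, a difference of 0.26 on the log2 scale (exact 95% interval −0.04 to 0.55). Peaks of other genes also lay close to LYZ (5.449 kb away, at YEATS4, 0.30, −0.17 to 0.78) and to TYROBP (7.849 kb away, at NFKBID, −0.19, −0.68 to 0.29). The RefSeq span of S100A8 was overlapped by a peak annotated to S100A7A (114 and 92 reads, 0.36, −0.04 to 0.78). That peak (chr1:153419587-153421165) lay far upstream of the S100A8 starts, whose upstream windows fall between 153390977 and 153391438. The peak nearest to MPO, 47.032 kb away at TSPOAP1-AS1, held 362 and 477 reads (−0.34, −0.54 to −0.14). Other nearest peaks went the other way. That of IRF8, 98.647 kb away at EMC8, had 0.62 (0.33 to 0.91). That of FCGR1A, 10.447 kb away at HIST2H2BF, had 2.38 (0.56 to 4.81) on 15 and 3 reads. Over all gene rows, 20.1% of intervals lay above 0 and 7.55% below. These genes were picked out after their values were seen.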
